A study of Mus musculus with 6 samples.

Results

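The 44 genes described here encode the enzymes of the glutathione and thioredoxin systems, the superoxide dismutases and catalase, and the regulators NRF2 and KEAP1 with some further NRF2 targets. They were taken from a list of symbols and found in the count tables by NCBI gene number, and all 44 were among the 18305 genes of the tables. RNA sequencing measured them in 6 libraries of cultured cells from KM mice, 2 libraries in each of 3 groups. MEF are embryonic fibroblasts, from embryos of 12.5 or 13.5 days, at passages 3 to 5. CiLC are passaged fibroblasts of the same origin and passages that were given small molecules from 24 h after seeding, compounds that the labels do not name. LC are Leydig cells, the steroid-making cells of the testis, prepared from testicular tissue and used at passages 0 to 1. The series set the 3 groups side by side to ask how far CiLC resemble LC. LC differ from both other groups in tissue of origin and in passage, and the labels give no age for the animals they came from.

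Glutathione is a small thiol made in successive steps by the glutamate-cysteine ligase (Gclc with Gclm) and glutathione synthetase (Gss), and it is kept reduced by glutathione reductase (Gsr). Glutathione transferases attach it to reactive compounds, and glutathione peroxidases use it to remove peroxides, as peroxiredoxins do with thioredoxin. NRF2, encoded by Nfe2l2, is the transcription factor that switches on many of these genes through antioxidant response elements, and KEAP1 marks it for destruction while the cell is not under oxidative stress. Steroid synthesis in Leydig cells uses mitochondrial cytochromes P450, which leak reactive oxygen.

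Total estimated reads were 18.4 to 18.9 M per library, and levels are given as CPM, reads scaled to a common library size by edgeR's TMM factors. Of the 44 genes, 42 passed the filter on low counts and were tested with edgeR's quasi-likelihood test, adjusted over all 14581 genes tested, and 0.05 was the adjusted p at which a gene was called. SE is the standard error of a log2 fold change. Values with an SD are means of 2 libraries. In cultures of mixed cells, fewer cells of a type and less RNA per cell cannot be told apart.

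The labelled cell types were checked against their markers. The 10 Leydig cell markers summed to 56.0 to 56.5 CPM in MEF, 194 to 196 in CiLC and 1287 to 1320 in LC, where Cyp11a1 and Star were abundant. Cyp17a1 had at most 1 read in any library, and Lhcgr had 3 and 2 reads in LC, so these defining Leydig markers were near 0 in the cells labelled as Leydig cells too. The 10 fibroblast markers summed to 48146 to 49017 CPM in MEF, 38110 to 38221 in CiLC and 33528 to 34992 in LC, with none at 0. Collagen genes and Fn1 carried these sums, and the 10 markers did not move together. In LC against MEF, 6 were called lower and 4 higher. Thy1 went from 395 ± 0.825 to 5.73 ± 0.226 CPM, Lum from 91.3 ± 7.55 to 5.72 ± 1.01 CPM and Postn from 3141 ± 168 to 32.2 ± 3.21 CPM. The 4 higher were Dcn, Vim, Col3a1, from 4584 ± 1.9 to 8503 ± 3.34 CPM, and Pdgfra, from 303 ± 15.3 to 1787 ± 38.1 CPM. In CiLC against MEF, 6 of the 10 were called higher and 4 lower. All 12 macrophage markers were present in each group, summing to 8683 to 8768 CPM in MEF, 11991 to 12171 in CiLC and 4726 to 5091 in LC. Lyz2 carried the higher CiLC sum, at 2660 ± 39.3 CPM in MEF and 7571 ± 122 in CiLC, and CiLC against MEF gave 4 of the 12 higher and 5 lower, the latter including Cx3cr1, from 590 ± 11.4 to 80.8 ± 1.97 CPM. Sertoli cell markers summed to 42.8 to 45.9 CPM in MEF, with Rhox5 and Fshr at 0, to 250 to 253 in CiLC, with Fshr at 0, and to 2324 to 2326 in LC. Clu carried most of the LC sum, at 1942 ± 3.8 CPM, and Inhbb and Clu most of the CiLC sum, at 135 ± 2.86 and 79.7 ± 1.1 CPM. All 7 tested markers were called higher in LC than in MEF. Still, in LC Rhox5 had 0 and 2 reads, Fshr 10 and 2, and Amh was at 1.58 ± 0.0169 CPM. Peritubular myoid markers summed to 1571 to 1649, 144 to 147 and 954 to 968 CPM in the same order of groups. Germ cell markers stayed at or under 31.7 CPM, endothelial markers at or under 83.3 CPM and erythroid markers at or under 0.942 CPM. The part of these cell types in the differences below was not tested.

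As a set, the antioxidant genes were most abundant in LC. Their summed level was 2288 and 2250 CPM in the MEF libraries, 2815 and 2885 CPM in CiLC, and 8341 and 8241 CPM in LC. The 3 groups did not overlap in this sum, with LC far above both and CiLC closer to MEF. A few genes weigh heavily in the LC sum, where Gstm1 held 16.6%, Me1 10.8% and Gstm2 10.5%. Against MEF, 38 of 42 tested genes were called higher in LC, 90.5% beside a background of 35.7% of all genes tested, and 2 were called lower, 4.76% beside a background of 35%. Gsto1 and Mgst3 were the 2 lower genes, and Gstt3 and Keap1 were not called. At least 2-fold, 20 were higher and 2 lower, beside 14.3% and 12.9% of all genes. The median log2 fold change of the 42 genes was 0.96, and that of all genes tested was -0.008.

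Fewer of them differed between CiLC and MEF. Of the 42 genes, 22 were called higher in CiLC, 52.4% beside a background of 26.1%, and 5 lower, 11.9% beside a background of 25.5%. The 5 lower genes were Gsto1, Gsr, Prdx2, Prdx6 and Me1. Only 4 were at least 2-fold higher, Gsta3, Mgst1, Mgst2 and Sod2, beside 6.23% of all genes, and none was 2-fold lower, beside 5.98%. The median log2 fold change was 0.22, beside 0.005 for all genes tested. These counts rest on the small spread between libraries, a common biological coefficient of variation of 3.16%. Where a coefficient was assumed, here and below, edgeR's likelihood-ratio test took the place of the quasi-likelihood test. With a coefficient of 0.4 assumed for every gene, CiLC against MEF gave 2 genes higher and 0 lower, and LC against MEF gave 15 higher and 0 lower. Of all 14581 genes tested, 407 were then higher and 268 lower in CiLC, and 1450 higher and 1058 lower in LC.

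Between CiLC and LC, 36 of 42 genes were called lower in CiLC, 85.7% beside a background of 35.6%, and 2 higher, 4.76% beside a background of 35%. The 2 higher genes were Gsto1 and Mgst3, while Gstt3, Mgst2, Gclm and Nqo1 were not called. The median log2 fold change was -0.74, beside 0.005 for all genes tested. At an assumed coefficient of variation of 0.4, CiLC against LC gave 0 higher and 9 lower, beside 937 and 1314 of all 14581 genes tested. The comparisons share libraries, so their counts are not independent of each other. By group means, LC was highest for 38 of the 42 genes, beside 40.5% of all genes, and MEF was lowest for 26, or 61.9%, beside 31.4%. CiLC was lowest for 14, or 33.3%, near the 27.2% of all genes.

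**Figure D1:**
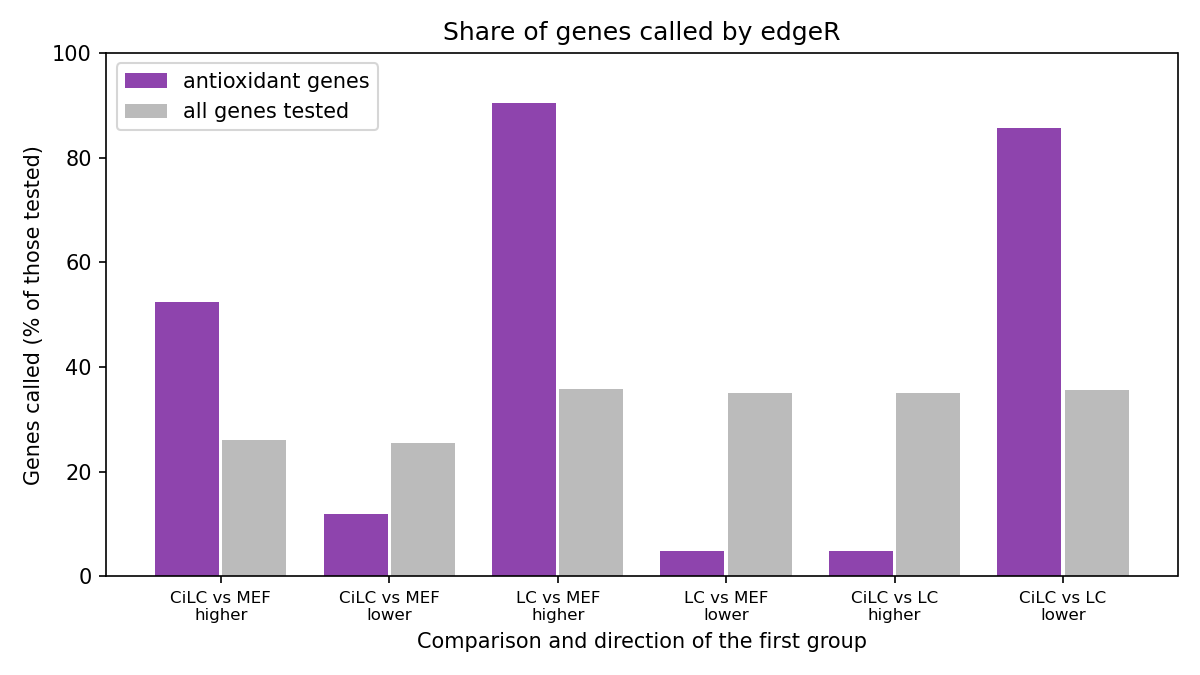
Bars give the percent of genes that edgeR called, for the 42 tested antioxidant genes and for all 14581 genes tested, in each comparison and direction of the first group named. The share of antioxidant genes higher in LC than in MEF, 90.5%, stands beside 35.7% of all genes, and the share higher in CiLC than in MEF, 52.4%, beside 26.1%.

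Summed over each role, LC was above MEF and CiLC in all 6 roles. The 17 glutathione transferases summed to 340 ± 2.69 CPM in MEF, 487 ± 9.1 in CiLC, then 2992 ± 15.6 in LC (SD, n = 2). The 4 superoxide dismutase and catalase genes summed to 210 ± 3.17, 376 ± 7.64 and 1150 ± 16.1 CPM in the same order. The 4 genes of glutathione synthesis and recycling summed to 84.1 ± 0.311 CPM in MEF and 85.0 ± 1.14 in CiLC, which differed by less than the SD of CiLC, and to 184 ± 1.09 in LC.

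Per kilobase of 1 annotated transcript per gene, a rough scale for setting genes beside each other, the leading genes differed between groups. That transcript need not be the one expressed, and by CPM alone Prdx1 led in MEF and CiLC, at 230 and 337. In MEF, Gpx4 stood at 117 CPM per kb, ahead of Prdx1 at 100 and Sod1 at 97.3. In CiLC, Prdx1 led at 147 CPM per kb, followed by Hmox1 at 136 and Gpx4 at 116. In LC, Gstm1 stood at 1065 CPM per kb and Gstm2 at 816, with Prdx5 at 336 next.

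**Figure D2:**
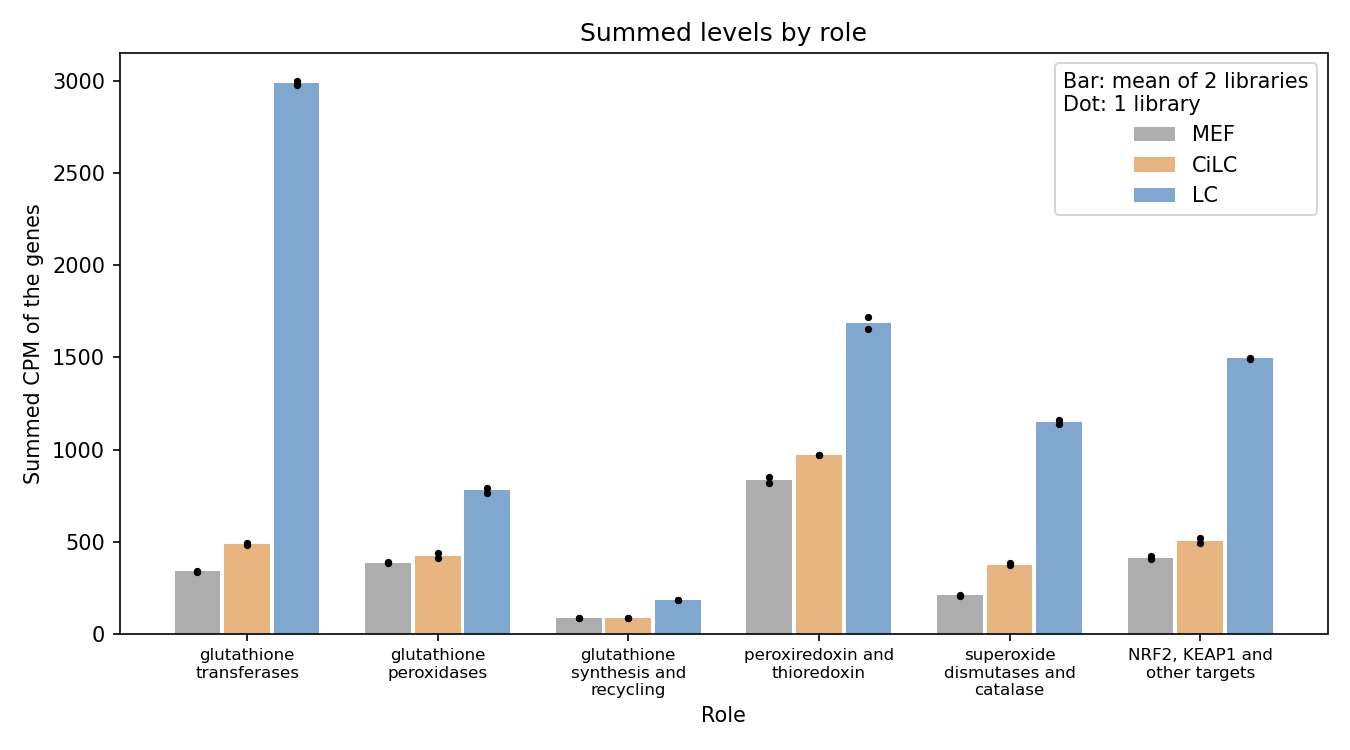
Bars give the mean summed CPM of the genes of each role in MEF, CiLC and LC, and dots give the single libraries (linear axis from 0). Glutathione transferases sum to 340 CPM in MEF and 2992 CPM in LC, and glutathione synthesis and recycling genes are level between MEF and CiLC at 84.1 and 85.0 CPM.

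Glutathione transferases, which conjugate glutathione to drugs and lipid aldehydes, held the largest differences. Of 15 tested, 9 were higher in CiLC than in MEF, 1 lower and 5 not called, so 60% were higher and 6.67% lower, beside backgrounds of 26.1% and 25.5%. In LC, 12 were higher than in MEF, 2 lower and 1 not called, or 80% and 13.3% beside 35.7% and 35%. The mu-class genes Gstm1 and Gstm2 were the most abundant of them in LC.

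Gstm1 measured 52.5 and 57.0 CPM in MEF, 89.3 and 102 in CiLC, and 1356 and 1389 in LC. Every CiLC library lay above both MEF libraries and far below LC. Gstm1 rose 1.74-fold in CiLC (log2 fold change 0.80 ± 0.065 SE, edgeR adjusted p = 3.54e-10) and 25.1-fold in LC against MEF (4.65 ± 0.061 SE, edgeR adjusted p = 3.36e-25). Gstm2 measured 50.2 and 49.1 CPM in MEF, 69.2 and 72.8 in CiLC, and 869 and 868 in LC. The order of the groups was the same and they did not overlap. Gstm2 rose 1.43-fold in CiLC and 17.5-fold in LC against MEF (log2 fold changes 0.52 ± 0.058 and 4.13 ± 0.052 SE, edgeR adjusted p = 7.62e-08 and 1.49e-25). CiLC stayed 14.4-fold below LC for Gstm1 and 12.2-fold below for Gstm2. The other mu-class genes of the set moved less, Gstm4 at 8.16 to 13.5 CPM and Gstm5 at 19.5 to 39.3 CPM over the 6 libraries. Both rose in LC against MEF, 1.43-fold and 1.90-fold, and neither was called between CiLC and MEF (edgeR adjusted p = 0.657 and 0.541).

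Some estimated counts were not whole, which makes them less certain. Of the 44 genes, 7 had estimated counts that were not whole in some library, Gstm1, Gstm2, Gstz1 and Sod2 in all 6, Gstm4 and Gstp1 in 5, and Gsta3 in 2. The starts of the coding sequences below, from the GENCODE M21 annotation of mouse, show how alike the members of the mu and pi classes are. Each line gives the first 60 coding bases, 5′ to 3′, and capitals mark bases that differ from Gstm1 in the mu class and from Gstp1 in the pi class.
Gstm1: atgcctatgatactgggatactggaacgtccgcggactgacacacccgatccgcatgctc
Gstm2: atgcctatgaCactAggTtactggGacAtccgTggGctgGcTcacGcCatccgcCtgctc
Gstm6: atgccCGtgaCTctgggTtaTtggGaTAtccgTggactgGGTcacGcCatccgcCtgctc
Gstm7: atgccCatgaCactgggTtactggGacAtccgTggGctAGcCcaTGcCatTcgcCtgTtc
Gstp1: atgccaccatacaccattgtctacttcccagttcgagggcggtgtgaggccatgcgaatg
Gstp2: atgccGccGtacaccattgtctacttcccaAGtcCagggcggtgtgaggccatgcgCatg
Over the whole coding sequence Gstm2 matched Gstm1 at 86.0% of 657 bases, Gstm6 at 82.8% and Gstm7 at 82.6%, and Gstp2 matched Gstp1 at 98.1% of 633 bases. Of all 50-base windows of the Gstm1 transcript, 23.1% also occurred in another annotated gene, mostly the pseudogene Gstm2-ps1, and 62.3% of those of Gstp1 occurred in Gstp2. The mu-class genes are less alike than the pi-class pair: 11 windows of Gstm2 occurred in Gstm1, and Gstm4, whose counts were not whole in 5 libraries, shared 0 windows with any other annotated gene.

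A sum over a family does not depend on how reads were divided among its own genes. Sums were therefore tested in place of the single genes, each over all genes named Gsta, Gstm, Gstp or Gstt with a number. Reads shared with genes outside a sum, such as Gstm2-ps1 and Gm12499 for the mu class and Gm3776 for the alpha class, could move it. The 7 mu-class genes summed to 132 and 138 CPM in MEF, 189 and 205 in CiLC, and 2334 and 2365 in LC, with no overlap of groups. The sum rose 1.46-fold in CiLC and 17.4-fold in LC against MEF (log2 fold changes 0.54 ± 0.053 and 4.12 ± 0.05 SE, edgeR adjusted p = 7.38e-09 and 2.29e-25). The alpha-class sum of 4 genes rose 1.73-fold and 12.2-fold, the pi-class sum of 3 genes 1.17-fold and 3.25-fold, and the theta-class sum of 4 genes 1.16-fold and 2.25-fold, in CiLC and LC against MEF. Against MEF, the CiLC calls of the pi and theta sums were the least firm. Without MEF replicate 2 the pi sum was at a log2 fold change of 0.14 with an edgeR adjusted p of 0.074, and the theta sum was at 0.15 both without CiLC replicate 1 (edgeR adjusted p = 0.169) and without MEF replicate 1 (0.137).

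The alpha-class gene Gsta3 measured 0.419 and 0.156 CPM in MEF, 1.48 and 1.17 in CiLC, and 110 and 106 in LC. MEF was near the limit of detection, CiLC slightly above it and LC far above both. Gsta3 rose 4.52-fold in CiLC (log2 fold change 2.17 ± 0.46 SE, edgeR adjusted p = 8.09e-05) and 367-fold in LC (8.52 ± 0.42 SE, edgeR adjusted p = 9.49e-24) against MEF. Both folds rest on few MEF reads, 8 and 3. Leaving out a library in turn gave log2 fold changes of 1.64 to 3.02 in CiLC and 7.98 to 9.36 in LC. Gsta4, which clears the lipid aldehyde hydroxynonenal, measured 11.0 and 12.1 CPM in MEF, 20 and 18.3 in CiLC, and 35.8 and 36.0 in LC. Its groups did not overlap. Gsta4 rose 1.66-fold in CiLC and 3.11-fold in LC against MEF (edgeR adjusted p = 4.44e-07 and 2.96e-14).

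The near-identical genes Gsta1 and Gsta2 were not tested, as they had too few reads. Gsta1 had 1 read in all libraries together. Gsta2 had 8 and 4 reads in LC and 0 in MEF and CiLC. Against a floor of 3 reads over a group, the LC reads as counted stood 4.47-fold above MEF and 4.60-fold above CiLC. The floor allows for counting error in the groups at 0 and not in LC.

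The pi-class gene Gstp1 measured 68.7 and 60.9 CPM in MEF, 76.0 and 77.4 in CiLC, and 208 and 211 in LC. MEF and CiLC lay close together without overlap, and LC was well above them. Gstp1 rose 1.18-fold in CiLC and 3.23-fold in LC against MEF (log2 fold changes 0.24 ± 0.058 and 1.69 ± 0.055 SE, edgeR adjusted p = 0.00118 and 3.22e-18).

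Of the theta class, Gstt1 measured 7.60 and 6.09 CPM in MEF, 11.4 and 9.48 in CiLC, and 29.7 and 29.7 in LC. The groups did not overlap. Gstt1 rose 1.52-fold in CiLC and 4.34-fold in LC against MEF (edgeR adjusted p = 0.00034 and 3.19e-14). Gstt2 measured 3.62 and 4.42 CPM in MEF, 4.17 and 3.85 in CiLC, and 15.5 and 15.2 in LC. Its MEF and CiLC libraries overlapped and only LC stood apart. Gstt2 rose 3.82-fold in LC against MEF (log2 fold change 1.93 ± 0.14 SE, edgeR adjusted p = 3.84e-12) and was not called in CiLC (edgeR adjusted p = 0.992). Gstt3, at 16.9 to 20.3 CPM, overlapped in all groups and was called in no comparison. Gstz1, the zeta-class enzyme of tyrosine breakdown, ran from 12.9 to 19.5 CPM and rose 1.33-fold in LC against MEF.

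The omega-class gene Gsto1, which reduces dehydroascorbate, went the other way. It measured 52.5 and 50.2 CPM in MEF, 31.5 and 34.2 in CiLC, and 21.5 and 19.1 in LC. MEF was highest, LC lowest and CiLC between them, with no overlap. Gsto1 fell 1.56-fold in CiLC (log2 fold change -0.64 ± 0.065 SE, edgeR adjusted p = 1.39e-08) and 2.53-fold in LC (-1.34 ± 0.074 SE, edgeR adjusted p = 7.58e-14) against MEF.

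The microsomal transferases, which sit in membranes, diverged from each other. Mgst1, which also reduces lipid peroxides, measured 21.9 and 19.7 CPM in MEF, 97.2 and 93.4 in CiLC, and 240 and 233 in LC. The groups were widely separated and CiLC lay between the others. Mgst1 rose 4.58-fold in CiLC and 11.4-fold in LC against MEF (log2 fold changes 2.20 ± 0.068 and 3.50 ± 0.066 SE, edgeR adjusted p = 2.51e-18 and 2.9e-23), and CiLC was 2.48-fold below LC. It was 1 of the 2 genes still called between CiLC and MEF at an assumed coefficient of variation of 0.4 (edgeR adjusted p = 0.00879). Mgst3 measured 13.1 and 13.4 CPM in MEF, 15.6 and 17.5 in CiLC, and 6.67 and 6.00 in LC. CiLC was highest and LC lowest. Mgst3 rose 1.25-fold in CiLC (edgeR adjusted p = 0.00822, but 0.121 without CiLC replicate 2 and 0.118 with DESeq2) and fell 2.09-fold in LC (edgeR adjusted p = 3.98e-08) against MEF. Mgst2, which can make leukotrienes, had 4 reads in each MEF library, at 0.210 and 0.208 CPM in MEF, 0.814 and 0.913 in CiLC, and 0.754 and 1.18 in LC. CiLC and LC overlapped above MEF. Mgst2 was called 4.04-fold higher in CiLC and 4.5-fold higher in LC than in MEF (log2 fold changes 2.01 ± 0.59 and 2.17 ± 0.59 SE, edgeR adjusted p = 0.00269 and 0.000858). Leaving out a library in turn gave log2 fold changes of 1.82 to 2.46 for LC.

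**Figure D3:**
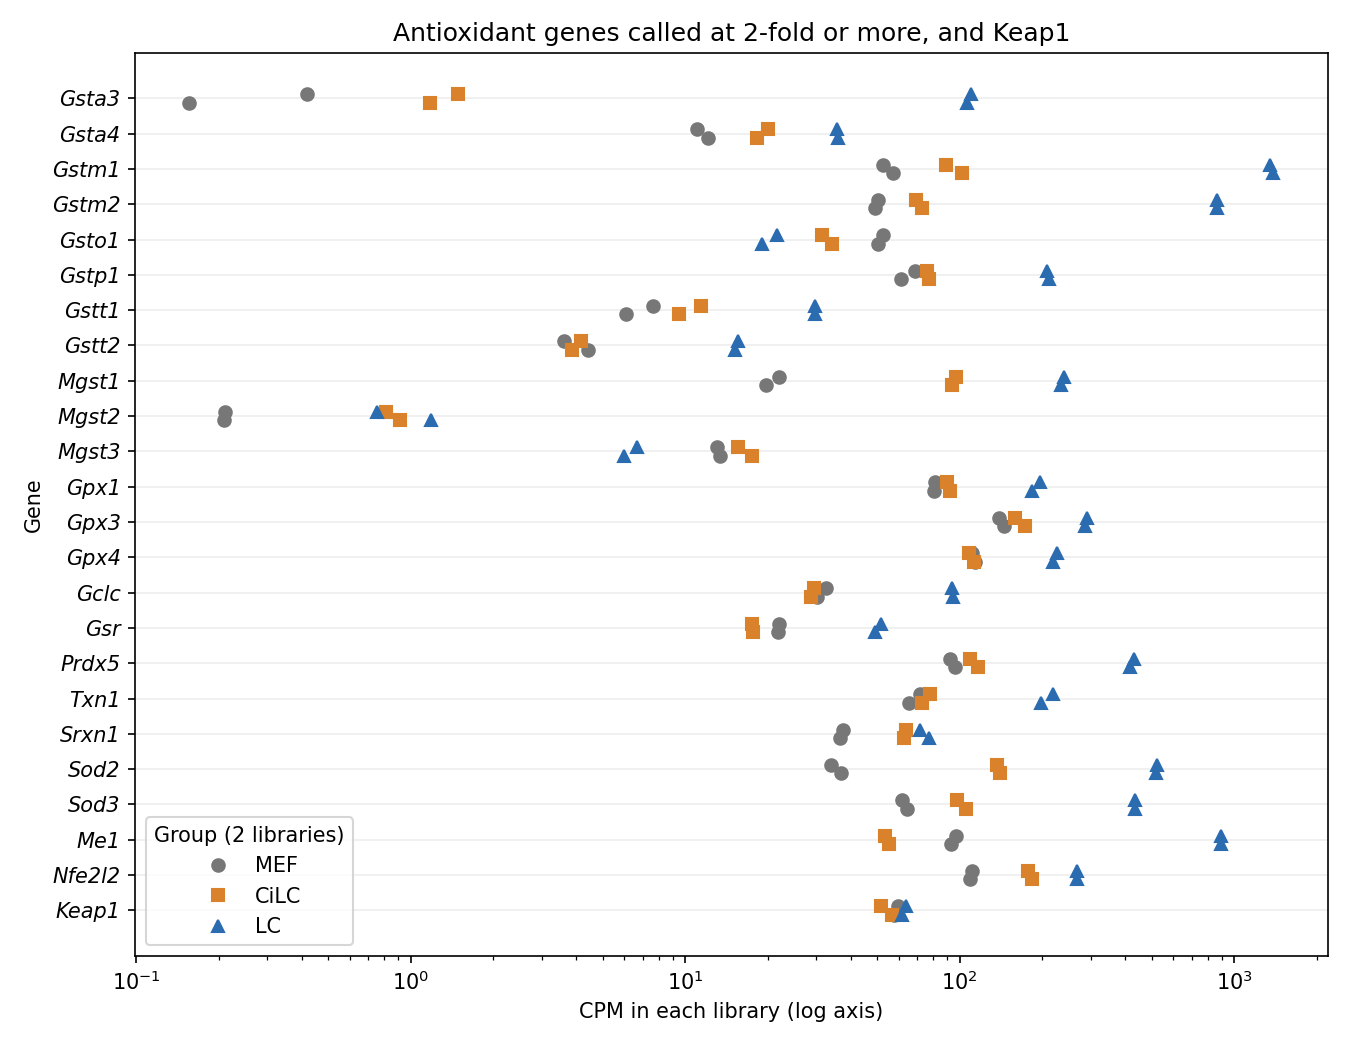
Points give the CPM of each library (log axis) for the 23 antioxidant genes called at 2-fold or more in some comparison, and for Keap1. LC libraries lie rightmost for most genes, Gsto1 and Mgst3 have LC leftmost, Me1 has CiLC leftmost, and the 6 Keap1 libraries sit between 51.8 and 63.9 CPM.

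Glutathione peroxidases differed mainly between LC and the other groups. All 5 were higher in LC than in MEF, beside a background of 35.7%, and 3 of 5, or 60%, were higher in CiLC, beside 26.1%. Gpx1, which reduces hydrogen peroxide in the cytosol and mitochondria, measured 81.3 and 80.3 CPM in MEF, 89.9 and 92.2 in CiLC, and 196 and 183 in LC. Gpx3, the secreted form, measured 139 and 145 CPM in MEF, 159 and 173 in CiLC, and 292 and 286 in LC. In both genes CiLC lay slightly above MEF without overlap, and LC well above both. Gpx1 rose 1.13-fold in CiLC and 2.35-fold in LC against MEF (edgeR adjusted p = 0.00847 and 3.52e-16), and its CiLC call was lost without CiLC replicate 2 (0.0843) and without MEF replicate 2 (0.0517). Gpx3 rose 1.17-fold and 2.04-fold (edgeR adjusted p = 0.000562 and 8.39e-15).

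Gpx4, which reduces lipid peroxides in membranes and so guards against ferroptosis, measured 111 and 114 CPM in MEF, 108 and 113 in CiLC, and 226 and 219 in LC. MEF and CiLC overlapped. Gpx4 was not called between them (edgeR adjusted p = 0.735) and rose 1.97-fold in LC against MEF (log2 fold change 0.98 ± 0.048 SE, edgeR adjusted p = 1.14e-14). Of its 50-base windows 68.9% also occurred in the pseudogene Gpx4-ps2, although its counts were whole. The peroxidases of the endoplasmic reticulum, Gpx7 and Gpx8, ran from 12.6 to 23.8 and from 35.1 to 57.0 CPM and each rose 1.55-fold in LC against MEF. In CiLC against MEF, Gpx8 rose 1.22-fold and Gpx7 was not called (edgeR adjusted p = 0.177, and 0.0433 as lower without MEF replicate 2).

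In glutathione synthesis, the catalytic and the modifier subunit of the ligase parted ways. Gclc, the catalytic subunit, measured 32.6 and 30.2 CPM in MEF, 29.5 and 28.8 in CiLC, and 93.4 and 94.7 in LC. CiLC lay just under MEF, and LC stood far above. Gclc rose 3.00-fold in LC against MEF (log2 fold change 1.58 ± 0.059 SE, edgeR adjusted p = 4.1e-17) and was not called in CiLC (edgeR adjusted p = 0.199). Gclm, the modifier subunit, was at 15.8 ± 0.733 CPM in MEF, 23.6 ± 1.46 in CiLC, then 22.3 ± 0.238 in LC. CiLC and LC lay close together above MEF. Gclm rose 1.5-fold in CiLC and 1.41-fold in LC against MEF (edgeR adjusted p = 3.13e-06 and 2.13e-05), and CiLC and LC were not called apart (log2 fold change 0.09 ± 0.08 SE, edgeR adjusted p = 0.34).

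Gsr, which returns oxidised glutathione to its reduced form, measured 21.9 and 21.8 CPM in MEF, 17.5 and 17.6 in CiLC, and 51.7 and 49.1 in LC. CiLC was lowest and LC highest, with no overlap. Gsr fell 1.25-fold in CiLC (log2 fold change -0.32 ± 0.077 SE, edgeR adjusted p = 0.00144) and rose 2.31-fold in LC (1.21 ± 0.067 SE, edgeR adjusted p = 1e-13) against MEF. Gss ran from 14.1 to 17.7 CPM over the 6 libraries. Its rise in LC against MEF, 1.16-fold, was at an edgeR adjusted p of 0.0467 and was lost in 12 of 16 other settings, each LC library and MEF replicate 1 left out among them. Its exons overlap those of Acss2 on the opposite strand, a gene that rose from 8.38 to 33.6 CPM between MEF and LC, and whether reads were counted by strand is not given. Exons of Gstm5, Gstz1, Gclm, Prdx2, Prdx5, Me1 and Keap1 also overlap another annotated gene on the opposite strand, so their counts are uncertain in the same way. Those of Gstt3 overlap Gm20441 over 524 bases and those of Gclm overlap Gm6061 over 244 bases, both on the same strand. Counting by strand would not separate these.

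Among peroxiredoxins and the thioredoxin system, all 9 genes were higher in LC than in MEF, beside a background of 35.7%. In CiLC 3 were higher, 2 lower and 4 not called, shares of 33.3% and 22.2% near the backgrounds of 26.1% and 25.5%. Prdx5, a peroxiredoxin of mitochondria, peroxisomes and cytosol, measured 91.9 and 95.9 CPM in MEF, 109 and 117 in CiLC, and 431 and 417 in LC. CiLC lay a little above MEF and LC far above both. Prdx5 rose 1.21-fold in CiLC and 4.52-fold in LC against MEF (log2 fold changes 0.27 ± 0.053 and 2.18 ± 0.05 SE, edgeR adjusted p = 0.000163 and 6.4e-21). Its exons overlap those of Trmt112 on the opposite strand over 409 bases, and Trmt112 itself was at 34.1 CPM in MEF, 33.4 in CiLC, then 47.8 in LC.

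Txn1, thioredoxin itself, measured 71.5 and 65.6 CPM in MEF, 77.7 and 72.9 in CiLC, and 219 and 197 in LC. LC stood apart while CiLC lay just above MEF. Txn1 rose 3.03-fold in LC against MEF (log2 fold change 1.60 ± 0.059 SE, edgeR adjusted p = 4.14e-17) and was not called in CiLC (0.13 ± 0.063 SE, edgeR adjusted p = 0.0783). With the replicate number as a block it was called there (edgeR adjusted p = 0.0329), as it was without MEF replicate 1 (0.0434). Txnrd1, the reductase that recharges thioredoxin, ran from 115 to 134 CPM and rose only 1.11-fold in LC against MEF (edgeR adjusted p = 0.00846, but 0.163 without MEF replicate 1 and 0.326 with upper-quartile scaling).

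Srxn1, which restores over-oxidised peroxiredoxins, had CiLC near LC. It measured 37.5 and 36.5 CPM in MEF, 63.6 and 62.6 in CiLC, and 71.7 and 77.6 in LC. MEF stood apart below the others, which did not overlap. Srxn1 rose 1.71-fold in CiLC and 2.02-fold in LC against MEF (log2 fold changes 0.77 ± 0.06 and 1.01 ± 0.06 SE, edgeR adjusted p = 1.62e-10 and 3.63e-13), and CiLC was 1.18-fold below LC. Prdx1, the abundant cytosolic peroxiredoxin, had a like order, at 230 ± 12.4 CPM in MEF, 337 ± 1.97 in CiLC, then 414 ± 14.9 in LC, and rose 1.46-fold and 1.80-fold. Prdx2, Prdx3, Prdx4 and Prdx6 rose between 1.31-fold and 1.69-fold in LC against MEF. In CiLC, Prdx2 fell 1.13-fold and Prdx6 1.10-fold (edgeR adjusted p = 0.00669 and 0.0362), calls that were lost for Prdx2 without CiLC replicate 1 (0.0747) and MEF replicate 1 (0.0863), and for Prdx6 in 8 of 16 other settings, among them each CiLC or MEF library left out. Prdx3 and Prdx4 were not called in CiLC.

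Superoxide dismutases and catalase were the role in which every gene, 4 of 4, was higher in both CiLC and LC than in MEF, beside backgrounds of 26.1% and 35.7%. Sod2, the manganese enzyme of the mitochondrial matrix, measured 33.9 and 36.8 CPM in MEF, 137 and 140 in CiLC, and 524 and 519 in LC. The groups were widely separated, with CiLC between the others. Sod2 rose 3.91-fold in CiLC and 14.8-fold in LC against MEF (log2 fold changes 1.97 ± 0.059 and 3.88 ± 0.057 SE, edgeR adjusted p = 2.38e-18 and 8.07e-25). It was the other gene still called between CiLC and MEF at an assumed coefficient of variation of 0.4 (edgeR adjusted p = 0.0254). Sod2 counts were not whole in any library, and 1.4% of its 50-base windows occurred in another annotated gene.

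Sod3, the extracellular enzyme, measured 61.5 and 64.1 CPM in MEF, 98.0 and 105 in CiLC, and 434 and 435 in LC. The order was the same, with CiLC nearer to MEF than to LC. Sod3 rose 1.62-fold in CiLC and 6.92-fold in LC against MEF (log2 fold changes 0.69 ± 0.055 and 2.79 ± 0.052 SE, edgeR adjusted p = 2.32e-10 and 1.04e-22). Sod1, the cytosolic copper and zinc enzyme, and catalase (Cat), which splits hydrogen peroxide in peroxisomes, moved less. Sod1 rose 1.16-fold in CiLC and 1.76-fold in LC, and Cat 1.31-fold and 1.73-fold, against MEF. The CiLC call of Sod1 (edgeR adjusted p = 0.00469) was lost without CiLC replicate 2 (0.0589) and without MEF replicate 1 (0.0509).

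The regulators and remaining targets did not move as a block. Nfe2l2 measured 111 and 109 CPM in MEF, 178 and 183 in CiLC, and 267 and 267 in LC. CiLC lay between MEF and LC, and the groups did not overlap. Nfe2l2 rose 1.64-fold in CiLC (log2 fold change 0.71 ± 0.048 SE, edgeR adjusted p = 1.07e-11) and 2.43-fold in LC (1.28 ± 0.047 SE, edgeR adjusted p = 4.24e-17) against MEF. Keap1 measured 59.7 and 57.5 CPM in MEF, 51.8 and 56.5 in CiLC, and 63.9 and 61.7 in LC. The groups lay close together but did not overlap. Keap1 was not called against MEF in CiLC (edgeR adjusted p = 0.107) or LC (0.129), and CiLC was 1.16-fold below LC (edgeR adjusted p = 0.00246, but 0.0817 without CiLC replicate 1 and 0.0546 with upper-quartile scaling). Transcript levels say nothing of NRF2 protein, which KEAP1 controls after translation.

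Me1, the malic enzyme that makes NADPH in the cytosol, moved in opposite directions in CiLC and LC. It measured 97.1 and 93.0 CPM in MEF, 53.6 and 55.1 in CiLC, and 897 and 895 in LC. CiLC was lowest, MEF higher and LC far above, with no overlap. Me1 fell 1.75-fold in CiLC (log2 fold change -0.81 ± 0.055 SE, edgeR adjusted p = 1.74e-11) and rose 9.42-fold in LC (3.24 ± 0.048 SE, edgeR adjusted p = 2.9e-24) against MEF, so CiLC was 16.5-fold below LC. Of its 50-base windows 33.4% also occurred in another annotated gene, mostly Gm7049, although its counts were whole. Hmox1, which breaks down heme, was at 148 ± 4.14 CPM in MEF, 214 ± 10.9 in CiLC, then 265 ± 0.1 in LC, and rose 1.45-fold and 1.79-fold. Nqo1, the quinone reductase often used as a readout of NRF2, was low in all libraries, at 2.91 to 5.10 CPM. It rose 1.51-fold in LC against MEF (edgeR adjusted p = 0.00799, but 0.0566 without MEF replicate 2, 0.11 without LC replicate 1 and 0.0748 with DESeq2) and was not called in CiLC (edgeR adjusted p = 0.26).

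**Figure D4:**
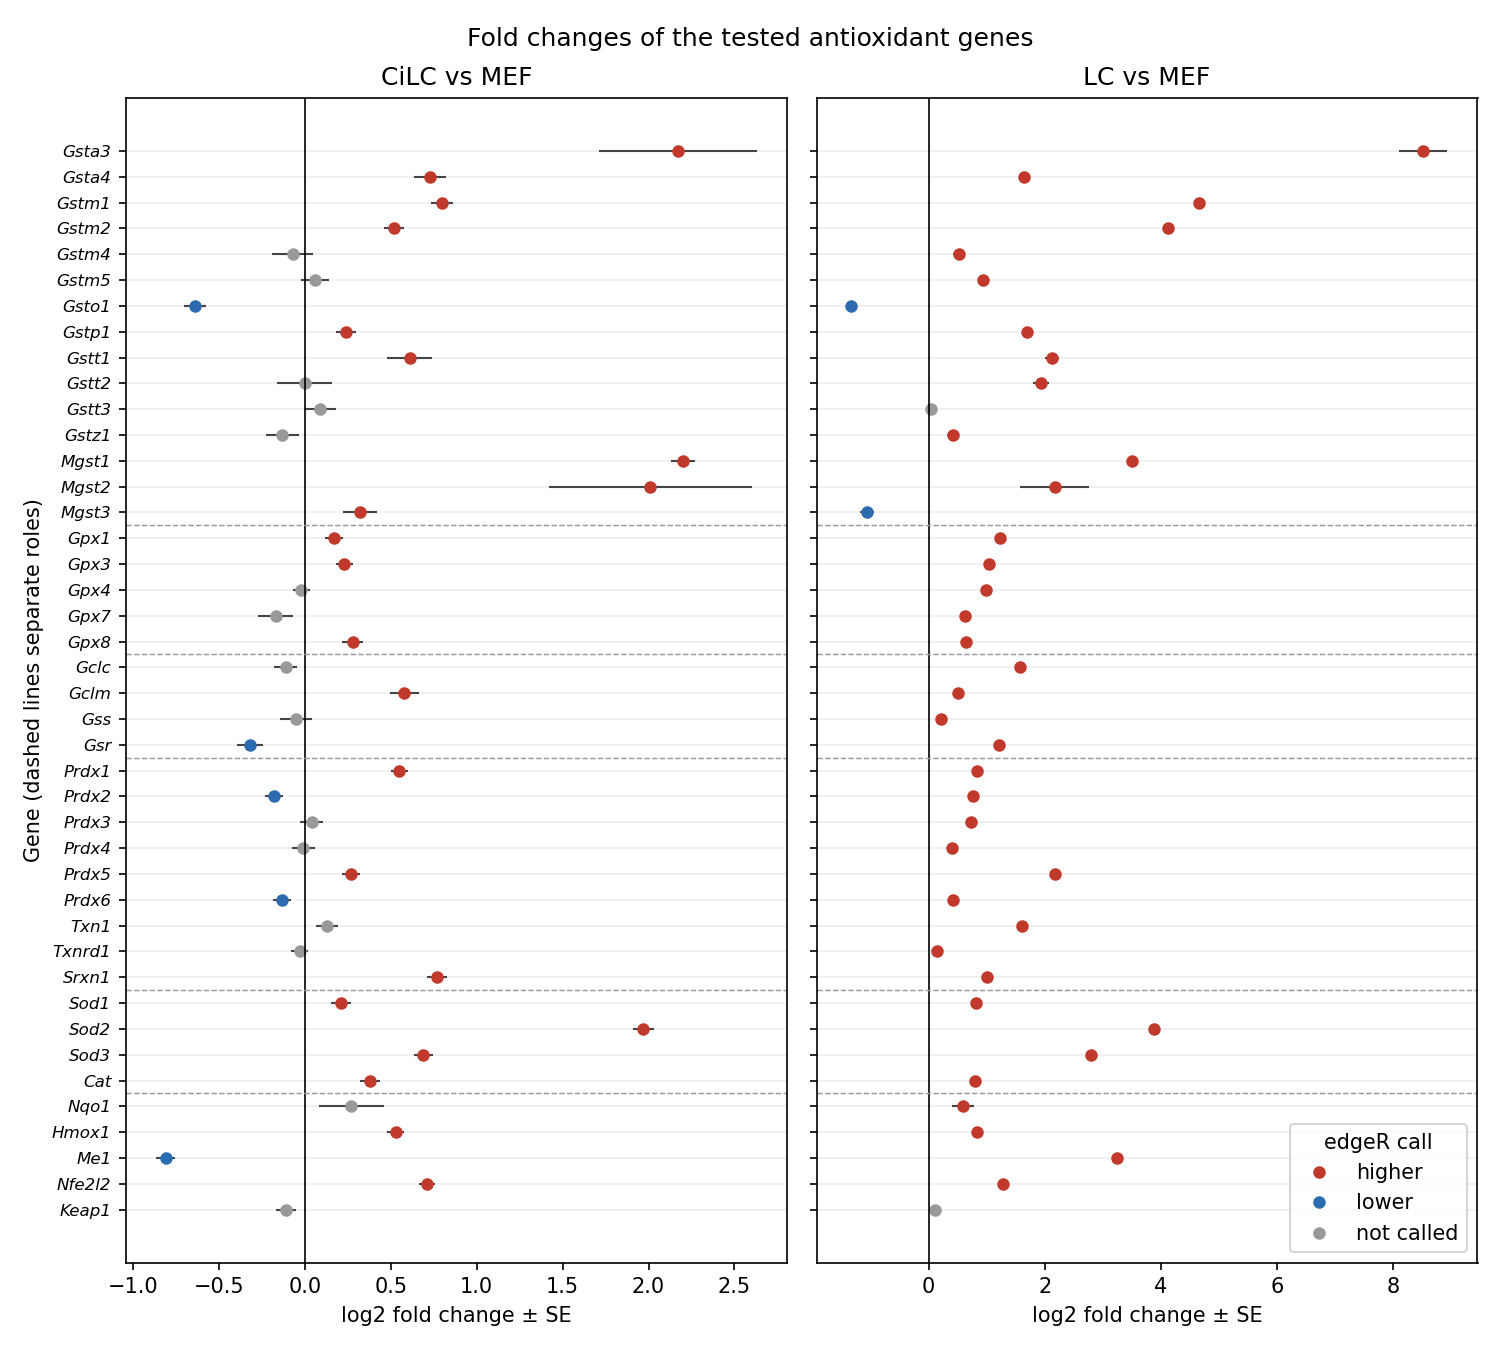
Points give the log2 fold change and bars its SE for the 42 tested genes, for CiLC against MEF and LC against MEF, which share the MEF libraries. The axes differ between panels: CiLC changes reach 2.20 (Mgst1) and LC changes 8.52 (Gsta3). Gsr, Me1, Prdx2 and Prdx6 are called lower in CiLC but higher in LC.

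Promoters were read for the antioxidant response element, since NRF2 acts through it. The core searched was TGACNNNGC on both strands of the 250 bases before each gene's start, in RefSeq promoters of the build GRCm38.p6. The counts were made on the build mm9, so these positions are those of the sequence table and not of the counts. Of the 44 genes 37 had a promoter sequence there. Gsta4, Gstt2, Gclc, Gsr, Prdx6, Sod3 and Hmox1 had none and were not searched. Of the 37, 8 held the core: Gclm, Gsta3, Gstm5, Mgst1, Nfe2l2, Prdx1, Sod1 and Txnrd1. Of all genes in the table, 11.5% held it, and 10.2% of all promoters. Of these, 6 rose in both CiLC and LC against MEF, and 4 of the 6 are shown, a soluble and a membrane transferase, the regulator itself and a peroxiredoxin. Gclm and Sod1 are the others. Mgst1 has 2 promoters in the table and Txnrd1 has 3, and each holds the core in 1 of them. Sequences are on the strand of the gene, 5′ to 3′, with the match in capitals. The core reads forward in Gsta3 and Nfe2l2, and on the opposite strand in Mgst1 and Prdx1.
Gsta3, chr1:21240434-21240502, plus strand: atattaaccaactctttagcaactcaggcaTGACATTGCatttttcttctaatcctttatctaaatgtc
Mgst1, chr6:138140441-138140509, plus strand: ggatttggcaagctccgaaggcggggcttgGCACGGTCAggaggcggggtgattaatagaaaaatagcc
Nfe2l2, chr2:75704865-75704913, minus strand: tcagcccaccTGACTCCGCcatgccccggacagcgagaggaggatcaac
Prdx1, chr4:116685436-116685504, plus strand: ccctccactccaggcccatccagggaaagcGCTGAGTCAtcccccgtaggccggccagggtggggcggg
Of the 8 genes with the core, 6 were called higher in CiLC against MEF and 0 lower, and all 8 were higher in LC, beside 26.1%, 25.5% and 35.7% of all genes tested. Of the 27 tested genes with a promoter sequence but no match to these letters, 13 were higher and 3 lower in CiLC, and 23 higher and 2 lower in LC. They include Srxn1 and Gstp1, which rose in both. Their windows hold tgagtcagc, a near form of the core that the search did not cover. Genes without a match may therefore still hold a like element. The letters CAAGGTCA, a core bound by steroidogenic factor 1, searched on both strands in the same windows, were in 1.33% of all promoters and in 0 of the 37 genes. A match in these letters is a description of the window and not a bound site.

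Other genes of the same pathways were read from lists outside the 44. Of 32 tested glutathione and thioredoxin genes, CiLC against MEF gave 6 higher and 8 lower, shares of 18.8% and 25%, near or under the backgrounds of 26.1% and 25.5%. In LC, 17 were higher and 6 lower than in MEF, 53.1% and 18.8% beside backgrounds of 35.7% and 35%. Gstm7 and Gstm6 showed the largest rises there, from 0.680 to 30.1 CPM and from 0.939 to 27.5 CPM, both with counts in LC that were not whole and with the sequence likeness to Gstm1 printed above. Ggt5, which cleaves extracellular glutathione conjugates, went from 4.05 ± 0.427 CPM to 78.6 ± 2.04 CPM, a rise of 19.4-fold (edgeR adjusted p = 6.63e-22). In CiLC, Gstp2 and Gstm6 were called lower than in MEF at under 1 CPM, and Msrb3, which repairs oxidised methionine, fell 1.84-fold.

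Of 38 further NRF2 targets and regulators, CiLC against MEF gave 15 higher and 6 lower, 39.5% and 15.8% beside backgrounds of 26.1% and 25.5%. LC against MEF gave 23 higher and 8 lower, 60.5% and 21.1% beside 35.7% and 35%. Idh1, the cytosolic isocitrate dehydrogenase and another source of NADPH, measured 77.7 ± 5.27 CPM in MEF, 171 ± 1.1 in CiLC, then 399 ± 13.9 in LC, and rose 2.20-fold and 5.14-fold (edgeR adjusted p = 2.04e-14 and 3.52e-21). Akr1b3, aldose reductase, rose 8.36-fold in LC, from 69.2 ± 0.466 to 578 ± 9.4 CPM, and Osgin1 3.56-fold (edgeR adjusted p = 1.41e-23 and 7.5e-16). Nfe2l3, a relative of NRF2, rose 2.68-fold and Aldh3a1, an aldehyde dehydrogenase, fell 2.23-fold in CiLC, both at 1.27 CPM or less in these groups. Maff, a small partner of NRF2, was 4.09-fold lower in CiLC than in LC.

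Gpx1, Gpx3, Gpx4 and Txnrd1 are selenoproteins, and other selenoproteins and the genes of selenoprotein synthesis were read as a list. Of 15 tested, CiLC against MEF gave 5 higher and 4 lower, 33.3% and 26.7% and so near the backgrounds of 26.1% and 25.5%. LC against MEF gave 3 higher and 4 lower, 20% and 26.7% beside 35.7% and 35%. Selenop, the secreted selenium carrier, fell 5.24-fold in LC, from 394 ± 21.6 CPM in MEF to 75.1 ± 3.12, and was at 416 ± 2.39 CPM in CiLC. Sephs2, which makes the selenium donor, fell 1.48-fold and Eefsec, the elongation factor for selenocysteine, 1.36-fold in LC against MEF. In CiLC against MEF, Selenoh fell 1.90-fold, Eefsec 1.32-fold, and Selenos rose 1.43-fold.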

How the data were processed

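Gene expression was measured by RNA sequencing (BGISEQ-500) in 6 libraries. The values the authors deposited are expected counts, that is estimated counts per gene that need not be whole, per the file headers. HISAT and mm9 are named in the submitters' processing notes as tool and build. Versions, counter, annotation and use of strand: not given in the sources used here. Symbols came from gene numbers in a RefSeq table of GRCm38.p6 (18179 of 18305 matched).

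Counts were rounded and tested two-sided with edgeR 4.0.16 in R 4.3.3 (TMM; filterByExpr with minimum count 10 and total 15, which kept 14581 genes and removed 3724; glmQLFit with group as the only term; Benjamini-Hochberg adjustment). A prior count of 0.125 entered the log2 fold changes. No label says that the libraries in a group are separate cultures or animals. The p-values therefore reflect the spread of these libraries alone, which may be technical. The procedure was also run on simulated whole counts with a coefficient of variation of 3.16%. Such data cannot show whether that spread is too small. Between the libraries of a group, chi-square per degree of freedom was 1.80 (CiLC), 2.81 (MEF) and 2.98 (LC), above sampling noise, so all were kept. Transcript lengths, shared windows and coding sequences came from GENCODE M21, and promoters from RefSeq. DESeq2 1.42.0, other scalings, filters and assumed spreads, a replicate block and leaving out each library were tried as alternatives.

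The genes and lists were chosen with earlier results of these data known. All 44 genes are named, with every library's value where a call reached 2-fold and for Nfe2l2 and Keap1. From each pathway list the 3 called genes of largest change per comparison are named. In the libraries, 32.4% to 32.8% of values were not whole. Floors cover counting error only.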

Additional observations from a re-analysis of the deposited data

How the results depend on the processing

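The number of libraries, 2 a group, limits the precision. The assumed spread was the choice that moved the counts, and fits with it used edgeR's likelihood-ratio test in place of the quasi-likelihood test. With a coefficient of variation of 0.4 in place of the fitted one, CiLC against MEF gave 2 genes higher and 0 lower, LC against MEF 15 and 0, and CiLC against LC 0 and 9. Among all 14581 genes tested, the counts in the same order were 407 and 268, 1450 and 1058, and 937 and 1314. With 0.1, CiLC against MEF gave 15 higher and 2 lower, and CiLC against LC 30 lower. Among all genes tested, 2064 were then higher and 2141 lower in CiLC against MEF, and 3954 lower in CiLC against LC. The family sums that lost their call at 0.4 were those of the alpha (log2 fold change 0.79), mu (0.54), pi (0.23) and theta (0.22) classes in CiLC against MEF, theta in LC against MEF (1.17), and pi (-1.47) and theta (-0.95) in CiLC against LC. The pi and theta sums in CiLC against MEF also lost it at 0.1 (edgeR adjusted p = 0.268 and 0.324), and theta with DESeq2 (0.22, adjusted p = 0.0794).

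With single libraries left out, CiLC against MEF gave 19 to 22 genes higher and 3 to 5 lower, with 3 lower without CiLC replicate 1 and without MEF replicate 1. In LC against MEF 36 to 37 were higher and 2 lower, and in CiLC against LC 2 were higher and 34 to 36 lower. The sums in CiLC against MEF then ran from 0.72 to 0.87 (alpha), 0.48 to 0.60 (mu), 0.14 to 0.32 (pi) and 0.15 to 0.29 (theta). The theta call was lost without CiLC replicate 1 and MEF replicate 1 (edgeR adjusted p = 0.169 and 0.137).

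Reversals occurred in uncalled genes near 0. With upper-quartile factors, which moved the median of all genes to -0.108 in LC against MEF, Gstt3 went to -0.06 and Keap1 to -0.000219. With libraries left out in turn, in CiLC against MEF, Gstm4 ran from -0.17 to 0.02, Gstt2 from -0.14 to 0.15, Gstt3 from -0.04 to 0.23, Gpx4 from -0.05 to 0.01, Gss from -0.10 to 0.000872, Prdx3 from -0.06 to 0.12, Prdx4 from -0.09 to 0.07 and Txnrd1 from -0.09 to 0.02. In LC against MEF, Gstt3 ran from -0.09 to 0.17. In CiLC against LC, Gstt3 ran from -0.01 to 0.11 and Mgst2 from -0.44 to 0.19. The cause was not tested.

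The groups share replicate numbers, but nothing in the labels pairs them, and deviations of same-numbered libraries correlated at 0.104 (CiLC with MEF), -0.0853 (CiLC with LC) and -0.00754 (MEF with LC). With the replicate number as a block, CiLC against MEF gave 23 genes higher and 5 lower, LC against MEF 37 and 2, and CiLC against LC 2 and 36. Among all 14581 genes tested, the counts in the same order were 3791 and 3714, 5187 and 5107, and 5100 and 5190. Under the block Gss lost its call in LC against MEF (edgeR adjusted p = 0.0519).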
